A study of Mus musculus with 8 samples.

Results

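The mitochondrial genome of the mouse holds 37 genes, and all 37 were found among the 55416 gene identifiers of the deposited table by a symbol that starts with *mt-*. They are 13 messenger RNAs, 2 ribosomal RNAs and 22 transfer RNAs. The annotation places 28 of them on the strand read from the heavy strand promoters and 9 on the strand read from the light strand promoter. Their RNA was measured in 8 mouse liver libraries. In 4 of them, called knockouts, the Cre recombinase driven by the albumin promoter was present (Alb-cre+) and *Smpd3*, the gene of neutral sphingomyelinase 2, was deleted in hepatocytes. The other 4 were floxed controls without Cre (Alb-cre-). All animals were fed HFMCD, a diet used to induce steatohepatitis, for 9 weeks, so that knockout livers were compared with control livers on the same diet. Since only the knockouts carry Cre, effects of Cre itself cannot be told apart from those of the deletion. The albumin promoter directs the deletion to hepatocytes, and values of whole liver do not show in which cells it took place. No source used here states the animals' age or sex, or whether animals were pooled. Values are TPM, an abundance scaled by transcript length and by library total, which keeps no record of sequencing depth. *Smpd3* stood at 1.17, 3.03, 1.27 and 2.06 TPM in knockouts 1 to 4, against 8.69, 10.7, 12.5 and 6.38 TPM in floxed controls 1 to 4, and every knockout was below every floxed control.

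Mitochondrial DNA is a small circle that is copied and read inside the organelle. Both strands are transcribed into long precursors, and the transfer RNAs that lie between the other genes mark where the precursors are cut. The messenger RNAs encode core subunits of the respiratory chain complexes I, III and IV and of ATP synthase, the ribosomal RNAs build the mitochondrial ribosome, and every other protein of these machines comes from nuclear genes. Hepatocytes are rich in mitochondria, so these RNAs are abundant in liver. Pieces of mitochondrial DNA have also been inserted into nuclear chromosomes over evolutionary time, and a recent insertion can keep nearly the same sequence.

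Such an insertion bears directly on these values. In the GENCODE M21 annotation of the build GRCm38, 7 unprocessed pseudogenes of chromosome 1 carry the sequence of mitochondrial genes at an identity of 99.7% or more. They range from the last part of *mt-Co1* to the first part of *mt-Nd4*. *mt-Atp8* lies in this span, but none of the 7 is its copy, and only the 43 bases that it shares with *mt-Atp6* matched 1 of them. *Gm28661* matched 681 of the 684 bases of *mt-Co2* with no mismatch, *Gm10925* 678 of the 681 bases of *mt-Atp6*, *Gm28437* 783 of the 784 bases of *mt-Co3* and *Gm10222* 294 of the 297 bases of *mt-Nd4l*, each also with no mismatch. *Gm28439* matched the first 876 of the 1378 bases of *mt-Nd4* with none. *Gm28438* matched 345 of the 348 bases of *mt-Nd3* with 1 mismatch, and *Gm29216* matched 483 of the 1545 bases of *mt-Co1* with 1 mismatch. Reads that fall inside the identical stretches cannot be assigned to the mitochondrial gene or to its copy by their sequence. The sequences that show how little separates the pairs are printed 5′ to 3′ from the GENCODE M21 transcripts, with the base that differs in capitals, positions counted from 1 at the first base of the mitochondrial gene, and mitochondrial coordinates in GRCm38 on the plus strand. The single aligned difference of *mt-Co1* (shown at chrM:6381-6413) is A1066T, and that of *mt-Nd3* (chrM:9459-9481) is T3C. The first bases of *Gm29216* lie before the aligned part.
mt-Co1: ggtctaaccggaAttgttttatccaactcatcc
Gm29216: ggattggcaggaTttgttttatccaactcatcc
mt-Nd3: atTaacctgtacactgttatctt
Gm28438: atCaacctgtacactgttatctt
In *mt-Co2* (chrM:7664-7696), the capitals mark the only bases that its copy lacks, the stop codon at its end.
mt-Co2: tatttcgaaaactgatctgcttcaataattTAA
Gm28661: tatttcgaaaactgatctgcttcaataatt

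Most of the TPM of 5 of these genes was listed under the nuclear copy. For the 6 pairs whose copy had a value above 0, the copy's TPM was weighted by the ratio of the annotated lengths and added to that of the mitochondrial gene. The copy then held 96.0% to 98.8% of the sum for *mt-Co2*, 96.9% to 99.6% for *mt-Co3*, 93.0% to 96.6% for *mt-Atp6*, 85.6% to 91.4% for *mt-Nd4l* and 66.1% to 77.0% for *mt-Nd3* over the 8 libraries. For *mt-Co1*, whose copy covers only the end of the gene, it was 7.60%, 9.75%, 9.87% and 10.5% in knockouts 1 to 4, against 14.4%, 13.8%, 13.6% and 9.06% in floxed controls 1 to 4. *Gm28439* was listed at 0 in all 8 libraries, although its whole length equals a part of *mt-Nd4*. The genotypes overlapped in the share of the copy for each of the 6 pairs.

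**Figure D1:**
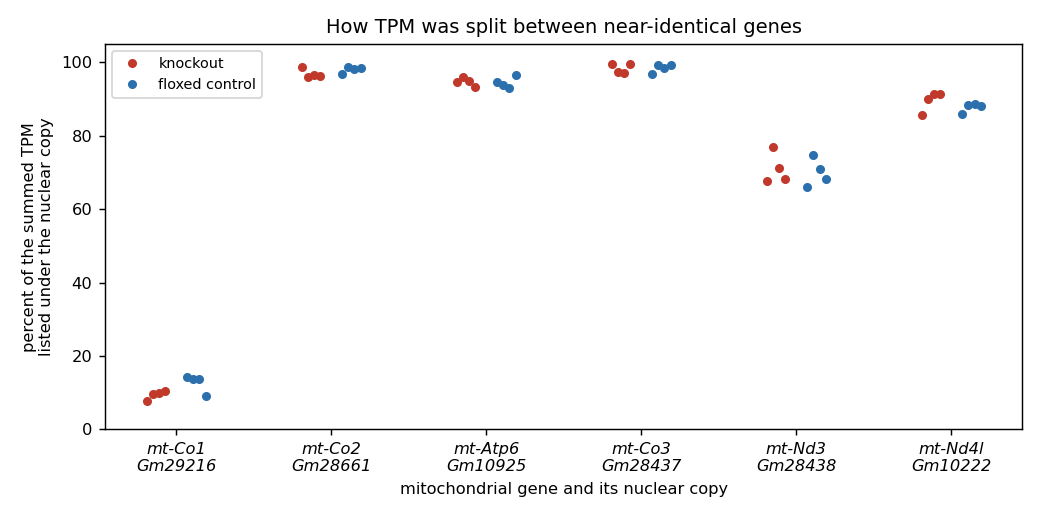
Percent of the length-weighted sum of TPM that was listed under the nuclear copy (y axis, 0 to 100) for 6 pairs of a mitochondrial gene and its copy (x axis), each point 1 library, knockouts in red and floxed controls in blue. The copy holds over 85% for *mt-Co2*, *mt-Atp6*, *mt-Co3* and *mt-Nd4l*, 66.1% to 77.0% for *mt-Nd3* and at most 14.4% for *mt-Co1*, and the genotypes overlap in each pair.

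The values of the affected genes changed in size and in spread when the copy was added. *mt-Co3*, which encodes a core subunit of cytochrome c oxidase (complex IV), was listed at 53.3, 328, 397 and 70.4 TPM in knockouts 1 to 4, against 396, 87.9, 191 and 122 TPM in floxed controls 1 to 4. Its highest library stood 7.44 times above its lowest. With *Gm28437* added, it had 14473, 12407, 13585 and 12101 TPM in the knockouts, against 12889, 12485, 12087 and 14957 TPM in the floxed controls, and the highest library stood 1.24 times above the lowest. *mt-Co2*, the subunit of complex IV that receives electrons from cytochrome c, was listed at 205, 587, 552 and 482 TPM in knockouts 1 to 4, against 438, 185, 255 and 259 TPM in floxed controls 1 to 4. With *Gm28661* added, it had 16202, 14844, 16289 and 13146 TPM in the knockouts, against 13981, 15093, 14073 and 18144 TPM in the floxed controls. The listed values of both genes were low and scattered, and the sums were high and even.

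Complex IV was then represented by 3 messenger RNAs of similar level. *mt-Co1*, the catalytic subunit, had 18003, 16281, 17914 and 14821 TPM in knockouts 1 to 4, against 15115, 16357, 14536 and 19960 TPM in floxed controls 1 to 4, without its copy. With the copies added, *mt-Co1*, *mt-Co2* and *mt-Co3* averaged 18490 ± 1509, 15120 ± 1473 and 13142 ± 1094 TPM in the knockouts, against 18846 ± 2249, 15323 ± 1947 and 13104 ± 1278 TPM in the floxed controls (SD, n = 4 per group). The groups overlapped for each of the 3 genes. *Gm29216*, the copy of the end of *mt-Co1*, was listed at 4653, 5522, 6158 and 5464 TPM in knockouts 1 to 4, against 7965, 8190, 7173 and 6243 TPM in floxed controls 1 to 4. Every knockout was below every floxed control, although knockout 3 and floxed control 4 lay close together. Of all 12710 tested genes, 185 (1.46%) were lower in every knockout. The log2 fold change of *Gm29216* was -0.44 ± 0.11 (SE), with an adjusted p of 0.209 in limma. *mt-Co1* itself overlapped between the groups with and without this copy. Whether the separation lies in how reads were split between *mt-Co1* and *Gm29216* was not tested.

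**Figure D2:**
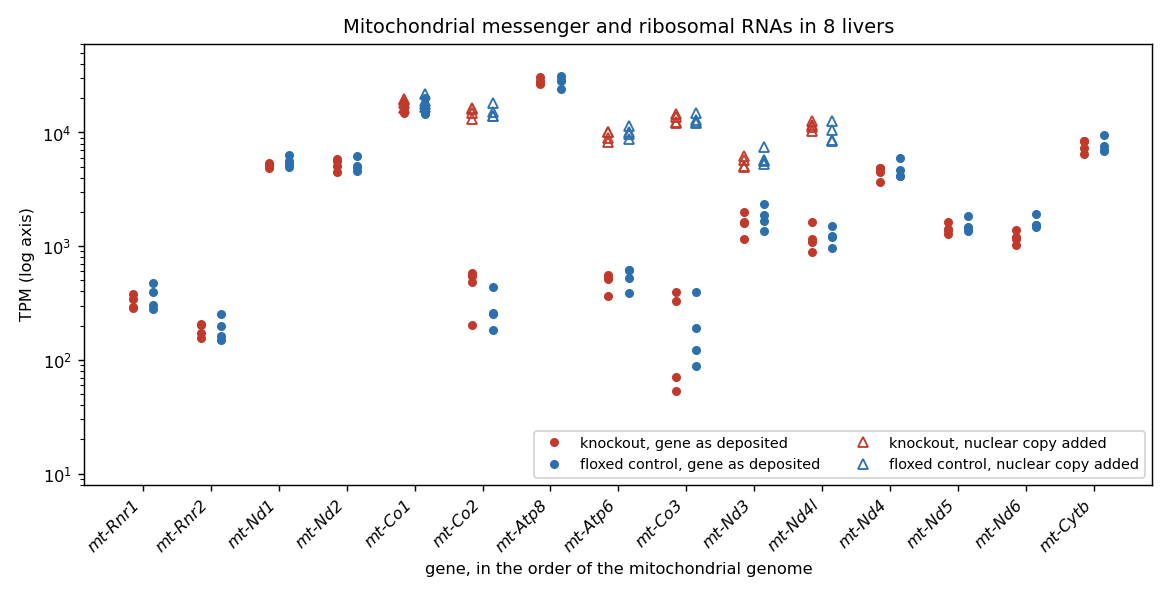
TPM on a log axis (y axis) of the 13 messenger and 2 ribosomal RNAs in the order of the mitochondrial genome (x axis), each point 1 library, knockouts in red left of floxed controls in blue. Filled circles are the genes as deposited and open triangles the same genes with the nuclear copy added, where *mt-Co2*, *mt-Atp6*, *mt-Co3* and *mt-Nd4l* have at most 1619 TPM as deposited and at least 8244 TPM with the copy.

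ATP synthase takes 2 subunits of its membrane part from the mitochondrial genome. *mt-Atp8*, the shortest messenger RNA gene at 204 bases, had the highest TPM. It had 28148, 27288, 30650 and 26433 TPM in knockouts 1 to 4, against 29054, 28628, 24310 and 31631 TPM in floxed controls 1 to 4. *mt-Atp6* is carried on the same RNA as *mt-Atp8*, and their reading frames overlap. It averaged 9356 ± 908 TPM in the knockouts and 9988 ± 1072 TPM in the floxed controls with *Gm10925* added (SD, n = 4 per group), against 495 ± 89.7 TPM and 535 ± 109 TPM as listed. The TPM of *mt-Atp8* and *mt-Atp6* thus differed although they share an RNA, so TPM of such short genes need not compare between genes. The cause of this difference was not tested. The end of *mt-Atp8* (chrM:7907-7969, plus strand, GRCm38) is shown with the 43 bases in capitals that it shares with the start of *mt-Atp6* and of *Gm10925*. The only other annotated match to *mt-Atp8*, 34 aligned bases of *Gm28926* with 1 mismatch, lies within these bases, and *Gm28926* was listed at 0.
mt-Atp8: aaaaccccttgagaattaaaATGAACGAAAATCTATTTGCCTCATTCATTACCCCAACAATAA

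Complex I, the NADH dehydrogenase, takes 7 subunits from the mitochondrial genome, 6 of them read from the heavy strand promoters. *mt-Nd1* averaged 5159 ± 267 TPM in the knockouts and 5532 ± 548 TPM in the floxed controls (SD, n = 4 per group), and *mt-Nd2* 5252 ± 584 and 5244 ± 695 TPM. *mt-Nd3* with its copy averaged 5468 ± 560 TPM in the knockouts and 6036 ± 982 TPM in the floxed controls, and *mt-Nd4* 4498 ± 581 and 4731 ± 843 TPM. *mt-Nd5*, the longest messenger RNA gene at 1824 bases, was the lowest of the heavy strand promoter messenger RNAs once copies were added, at 1428 ± 151 TPM in the knockouts and 1532 ± 220 TPM in the floxed controls. The groups overlapped for each of these 5 genes.

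*mt-Nd4l*, which shares its RNA with *mt-Nd4*, was 1 of 4 members whose sign changed when the copy was added, with *mt-Co1*, *mt-Co2* and *mt-Co3*. As listed, it had 1619, 1154, 1082 and 890 TPM in knockouts 1 to 4, against 1206, 1221, 960 and 1497 TPM in floxed controls 1 to 4, with a log2 fold change of -0.06 ± 0.18 (SE). With *Gm10222* added, it had 11243, 11638, 12515 and 10330 TPM in the knockouts, against 8489, 10518, 8518 and 12527 TPM in the floxed controls, with a log2 fold change of 0.21 ± 0.12 (SE). The groups overlapped in both, and the adjusted p of limma was 0.984 as listed and 0.750 with the copy. As a percent of the TPM of the 13 messenger RNAs with copies added, *mt-Nd4l* took 8.46%, 9.43%, 9.25% and 9.09% in knockouts 1 to 4, against 6.95%, 8.33%, 7.46% and 8.36% in floxed controls 1 to 4. Every knockout was above every floxed control in this percent, with 1 narrow gap between knockout 1 and floxed control 4. As listed, the groups overlapped in this percent, at 1.34% to 2.09% in the knockouts and 1.45% to 1.70% in the floxed controls. The separation was thus seen only with the copies added. *mt-Nd4*, on the same RNA, took 3.55% ± 0.206 in the knockouts with copies added. In the floxed controls it took 3.68% ± 0.234, with overlap (SD, n = 4 per group). The cause of the difference between *mt-Nd4l* and *mt-Nd4* was not tested.

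*mt-Cytb* encodes the only subunit of complex III that comes from the mitochondrial genome. It had 8375, 7302, 8484 and 6421 TPM in knockouts 1 to 4, against 6985, 7563, 6917 and 9573 TPM in floxed controls 1 to 4. The groups overlapped, and its log2 fold change was -0.02 ± 0.12 (SE).

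*mt-Nd6*, a membrane subunit of complex I, is the only messenger RNA read from the light strand promoter. It had 1168, 1387, 1209 and 1034 TPM in knockouts 1 to 4, against 1533, 1490, 1542 and 1938 TPM in floxed controls 1 to 4. Every knockout was below every floxed control, and the knockout mean was 73.8% of the control mean. In limma its log2 fold change of -0.44 ± 0.11 (SE) had a p of 0.00216 and an adjusted p of 0.217 over the 12710 tested genes, so that *mt-Nd6* did not pass the threshold of 0.05. In the whole table, 13 of the 12710 genes passed (0.102%), 6 higher (0.0472%) and 7 lower (0.0551%). The groups did not overlap in 603 genes (4.74%), of which 185 (1.46% of all) were lower in every knockout. *mt-Nd6* was the only one of the 15 tested members in which the groups did not overlap, as well as the only one with an unadjusted p under 0.05, which 1019 of all genes had (8.02%). Against shares of 4.74% and 8.02%, 1 gene among 15 is not unusual.

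**Figure D3:**
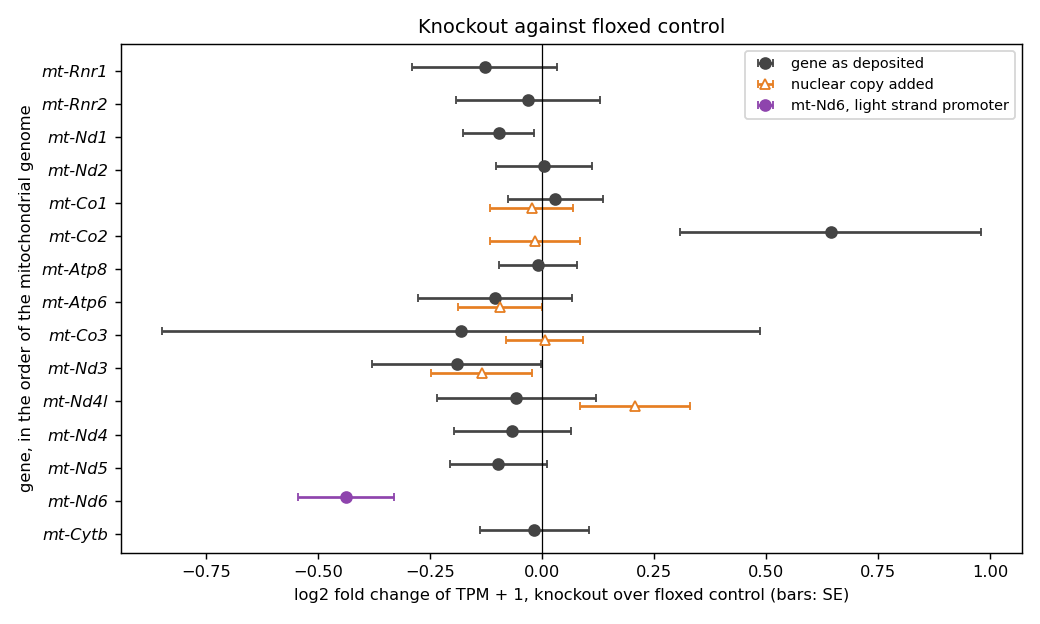
Log2 fold change of TPM + 1, knockout over floxed control (x axis, bars are the SE of limma) for the 15 tested members in genome order (y axis). Circles are genes as deposited and open triangles genes with the nuclear copy added. *mt-Nd6* lies at -0.44, while the heavy strand promoter messenger RNAs with copies added lie between -0.14 and 0.21.

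The lower level of *mt-Nd6* was also seen against its neighbours on the other strand, a measure that does not depend on the library total. Per 100 TPM of *mt-Nd5*, the gene next to it on the opposite strand, *mt-Nd6* had 83.6, 84.9, 85.9 and 81.3 TPM in knockouts 1 to 4, against 104.5, 104.0, 112 and 104.3 TPM in floxed controls 1 to 4. Every knockout was below every floxed control here, with a wider gap than for some other partners. Per 100 TPM of *mt-Nd4*, for example, the highest knockout had 31.1 TPM and the lowest floxed control 31.6 TPM. *mt-Nd5* was chosen as the partner after the data were seen, so no test is given. Per 100 TPM of the sum of the 12 heavy strand promoter messenger RNAs, a ratio that was planned, *mt-Nd6* had 1.53, 1.95, 1.55 and 1.58 TPM in the knockouts, against 2.13, 2.06, 2.38 and 2.25 TPM in the floxed controls. The difference of the mean log2 ratios was -0.42, and it was -0.43 with the nuclear copies added to the sum. Against each of the 12 messenger RNAs in turn, with copies added, the ratio was lower in every knockout for 10, the exceptions being *mt-Atp6* and *mt-Nd3*, and the knockout mean was 63.8% to 81.9% of the control mean. As deposited, the ratio was lower in every knockout for 8 of the 12, and the knockout mean was 49.4% to 98.1% of the control mean. These ratios all share the values of *mt-Nd6*.

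**Figure D4:**
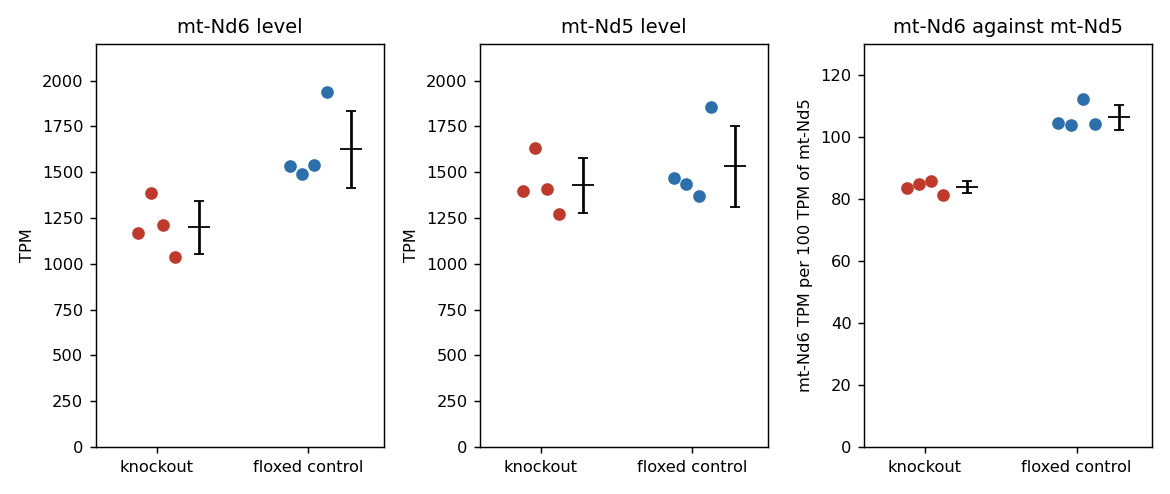
TPM of *mt-Nd6* (left) and of *mt-Nd5* (middle) and the TPM of *mt-Nd6* per 100 TPM of *mt-Nd5* (right) in knockouts (red) and floxed controls (blue), each point 1 library, with the mean and SD (n = 4) in black. The knockouts lie below the floxed controls in the left and right panels and overlap them in the middle one.

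The strand matters for how *mt-Nd6* can be measured. Its transcript holds 28.1% G, against 5.88% to 16.1% in the 12 heavy strand promoter messenger RNAs. The ends of *mt-Nd6* (chrM:13552-13591, minus strand, GRCm38) and of *mt-Nd5* (chrM:13526-13565, plus strand) run into each other, and the 14 bases in capitals pair with one another. The kit marked strand, per the labels, but no source used here states the strand setting of the counting. RNA of the heavy strand promoters that covers the *mt-Nd6* gene on its opposite strand therefore cannot be told apart from *mt-Nd6* by these values. No annotated copy matched *mt-Nd6* at 99% identity or more, and *Gm11408*, which matched it with 33 mismatches, was listed at 0 in every library.
mt-Nd6: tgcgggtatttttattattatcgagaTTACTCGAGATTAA
mt-Nd5: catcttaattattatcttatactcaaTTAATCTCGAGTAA

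Among the other 14 tested members none had an adjusted p below 0.697 in limma. By sign alone, 12 of the 15 tested members were lower and 3 higher, with a median log2 fold change of -0.07, beside a median of 0.05 over all tested genes. The 12 heavy strand promoter messenger RNAs had a median of -0.06 as listed, between -0.19 (*mt-Nd3*) and 0.64 (*mt-Co2*, adjusted p = 0.697), and of -0.02 with copies added. Under median-of-ratios scaling, which centres all genes near 0, the median of the 15 members was -0.13.

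The 2 ribosomal RNAs were read at a low level. *mt-Rnr1*, the 12S RNA of the small subunit of the mitochondrial ribosome, had 383, 292, 341 and 289 TPM in knockouts 1 to 4, against 306, 393, 278 and 472 TPM in floxed controls 1 to 4. *mt-Rnr2*, the 16S RNA of the large subunit, had 208, 155, 202 and 173 TPM in the knockouts, against 162, 197, 151 and 256 TPM in the floxed controls. Both groups overlapped in both genes, and the log2 fold changes were -0.13 ± 0.16 and -0.03 ± 0.16 (SE). Floxed control 4 was the highest and floxed control 3 the lowest library in both. *mt-Rnr2* had 54.3, 53.2, 59.2 and 59.9 TPM per 100 TPM of *mt-Rnr1* in the knockouts, against 53.0, 50.2, 54.3 and 54.2 TPM in the floxed controls. Per 100 TPM of messenger RNA the ribosomal RNAs together had 0.689 ± 0.0592 TPM in the knockouts and 0.728 ± 0.10 TPM in the floxed controls (SD, n = 4 per group). Libraries of total RNA are usually depleted of ribosomal RNA. No source used here states whether and how that was done, so these levels do not describe the amount of ribosomal RNA in the cells.

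All 22 transfer RNA genes were listed at 0 TPM in all 8 libraries, 14 of the heavy and 8 of the light strand promoter. Those of the heavy strand promoters are *mt-Tf*, *mt-Tv*, *mt-Tl1*, *mt-Ti*, *mt-Tm*, *mt-Tw*, *mt-Td*, *mt-Tk*, *mt-Tg*, *mt-Tr*, *mt-Th*, *mt-Ts2*, *mt-Tl2* and *mt-Tt*, and those of the light strand promoter *mt-Tq*, *mt-Ta*, *mt-Tn*, *mt-Tc*, *mt-Ty*, *mt-Ts1*, *mt-Te* and *mt-Tp*. None passed the filter on low values, and no comparison of them was possible. Their genes are 59 to 75 bases long, shorter than the 204 bases of the shortest messenger RNA gene, and a value of 0 in a table of estimated abundances need not mean that the RNA was absent. The longest is *mt-Tl1*, a leucine transfer RNA (chrM:2676-2750, plus strand, GRCm38), and the shortest *mt-Ts2*, a serine transfer RNA (chrM:11613-11671, plus strand). *mt-Te*, the glutamate transfer RNA beside *mt-Nd6*, is read from the light strand promoter (chrM:14071-14139, minus strand). They are shown whole, as encoded in GENCODE M21.
mt-Tl1: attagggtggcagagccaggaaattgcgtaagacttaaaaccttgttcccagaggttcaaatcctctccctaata
mt-Ts2: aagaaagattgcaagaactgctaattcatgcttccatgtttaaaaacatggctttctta
mt-Te: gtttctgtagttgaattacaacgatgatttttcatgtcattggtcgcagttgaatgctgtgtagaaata

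As shares of library TPM, the 37 genes took 7.86%, 7.32%, 8.04% and 6.74% in knockouts 1 to 4, against 7.43%, 7.47%, 6.72% and 8.92% in floxed controls 1 to 4. The groups overlapped widely, with means of 7.49% ± 0.585 in the knockouts and 7.63% ± 0.925 in the floxed controls (SD, n = 4 per group). Nearly all of this was messenger RNA, at 7.44% ± 0.580 and 7.58% ± 0.912. Ribosomal RNA took 0.0513% ± 0.00687 in the knockouts and 0.0556% ± 0.0136 in the floxed controls, and transfer RNA 0%. By strand, genes of the heavy strand promoters took 7.37% ± 0.581 in the knockouts and 7.47% ± 0.906 in the floxed controls, again with overlap. The light strand promoter share, which is *mt-Nd6* alone, was 0.121% ± 0.0147 in the knockouts and 0.163% ± 0.0210 in the floxed controls, without overlap.

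The nuclear copies took a further 5.90%, 5.53%, 6.07% and 5.12% of library TPM in knockouts 1 to 4, against 5.46%, 5.88%, 5.33% and 6.68% in floxed controls 1 to 4. With the copies added by length, the mitochondrial share was 12.7% ± 1.00 in the knockouts and 12.9% ± 1.55 in the floxed controls (SD, n = 4 per group). The difference between the genotypes was -0.14 percentage points without and -0.19 percentage points with the copies, smaller than the spread within either group.

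**Figure D5:**
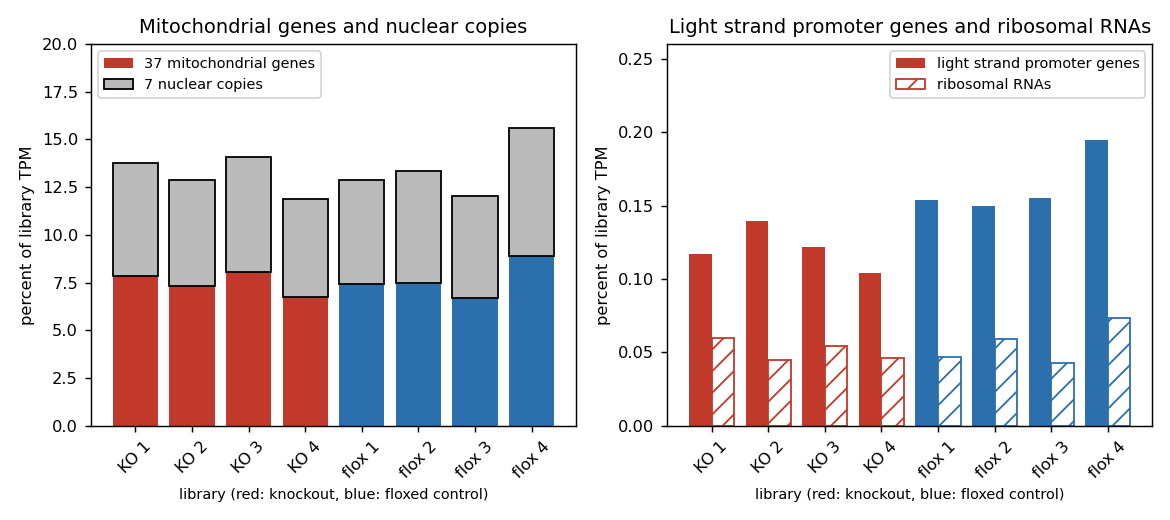
Percent of library TPM (y axes, from 0) in each of the 8 libraries (x axes, knockouts in red, floxed controls in blue). Left, the 37 mitochondrial genes (coloured) and the nuclear copies (grey, stacked as listed and not weighted by length), where floxed control 4 is the highest. Right, the light strand promoter genes (filled), lower in every knockout, and the ribosomal RNAs (hatched), which overlap.

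Much of the variation among libraries was shared by the members. With copies added, floxed control 4 was the highest of the 8 libraries in 15 of the 15 measured members and knockout 4 the lowest in 9 of them. As listed, floxed control 4 was the highest in 11, the exceptions being *mt-Co2*, *mt-Atp6*, *mt-Co3* and *mt-Nd4l*. Floxed control 4 also stood apart in general measures, where 12115 genes reached 1 TPM, while the knockouts had 12474 to 12890 such genes and the other floxed controls 12678 to 12871. The 10 hepatocyte markers, none of them at 0, summed to 64150 to 71664 TPM in the knockouts, against 70913, 81417, 70959 and 84604 TPM in floxed controls 1 to 4. The 8 liver endothelial markers, all measured, summed to 67.9 to 92.0 TPM in the knockouts, against 128, 144, 115 and 51.6 TPM in floxed controls 1 to 4. The 7 stellate cell markers summed to 423 to 598 TPM in the knockouts and 523, 539, 504 and 243 TPM in floxed controls 1 to 4, and the 8 macrophage markers to 504 to 757 TPM in the knockouts and 651, 694, 846 and 405 TPM in floxed controls 1 to 4. The 5 erythroid markers summed to 967, 1451, 923 and 1891 TPM in knockouts 1 to 4, against 690, 952, 1157 and 734 TPM in floxed controls 1 to 4. The 6 cholangiocyte markers summed to 180 to 632 TPM in the knockouts and 246 to 467 TPM in the floxed controls, the 6 markers of T, NK and B cells to 9.18 to 24.5 and 8.42 to 21.4 TPM, and the 4 neutrophil markers to 46.0 to 54.4 and 34.0 to 58.7 TPM. The genotypes overlapped in the sums of all 8 lists, none of their genes passed the threshold, and no marker was listed at 0 in every library. A sum follows its most abundant genes, and *Alb* averaged 44559 of the 69511 TPM of the hepatocyte sum in the knockouts. *Apoa1* of that list was lower in every knockout, at 10018 to 11786 TPM against 12217 to 16468 TPM (adjusted p = 0.204 in limma). Of all tested genes, 1.46% were lower in every knockout. *Alb*, *Ttr* and *Cps1* overlapped. The part of these differences in the level of the members was not tested, and in bulk tissue fewer cells of a type and less RNA per cell cannot be told apart. Without floxed control 4, the difference in the share of all 37 genes turned to 0.29 percentage points, and without knockout 4 to 0.11. The log2 fold change of *mt-Nd6* was -0.35 without floxed control 4, and the difference of its log2 ratio to the heavy strand promoter messenger RNAs was -0.41.

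The nuclear genes that copy, read and process mitochondrial DNA were compared next. Of 177 listed genes, 174 were tested, and none passed an adjusted p of 0.05 in limma, where 0.102% of all genes did. At an unadjusted p under 0.05 there were 10 of the 174, where 8.02% of all genes had one. The median log2 fold change was 0.02, beside 0.05 over all tested genes. Among 8 tested transcription genes, which include the polymerase *Polrmt* and the packaging and initiation factor *Tfam*, 5 had higher and 3 lower values. *Tfam* averaged 22.5 ± 5.50 TPM in the knockouts and 23.8 ± 4.16 TPM in the floxed controls, and *Polrmt* 20.04 ± 3.29 and 17.7 ± 3.51 TPM (SD, n = 4 per group); both were named after their values were seen. The member of smallest p in this role, *Mterf2*, a gene of the mitochondrial termination factor family, averaged 1.82 ± 0.832 TPM in the knockouts and 2.30 ± 0.596 TPM in the floxed controls. Of the genes for copying the genome and supplying nucleotides, 10 were tested and 6 had higher values, with *Ssbp1*, the single-stranded DNA binding protein, at 29.7 ± 3.05 TPM in the knockouts and 25.9 ± 2.35 TPM in the floxed controls.

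Later steps gave the same count of 0 past the threshold. In a list of 11 genes grouped under cleavage of the precursors, not all members are cleaving enzymes. *Fastk*, a founding member of the FASTK family of RNA-binding proteins, had the smallest p in it. It had 31.3 ± 3.83 TPM in the knockouts and 26.3 ± 1.59 TPM in the floxed controls (SD, n = 4 per group). Among 7 genes for stability, polyadenylation and decay, the member of smallest p was *Pnpt1*, the polynucleotide phosphorylase, with 12.6 ± 0.689 and 10.9 ± 2.06 TPM. Among 11 genes for ribosomal RNA modification and ribosome assembly, it was *Nsun4*, a methyltransferase, with 8.78 ± 0.942 and 7.17 ± 0.661 TPM. Among 13 genes for transfer RNA modification, it was *Trmt5*, a methyltransferase, with 3.24 ± 0.499 and 4.18 ± 0.613 TPM. Of 21 tested genes for charging transfer RNAs, 14 had higher values, and *Lars2*, the leucyl-tRNA synthetase, had 21.1 ± 1.66 and 16.4 ± 1.79 TPM, with an adjusted p of 0.377 in limma. Among 10 translation factors, it was *Tsfm*, an elongation factor, with 21.9 ± 2.25 and 18.3 ± 2.11 TPM. In each of these pairs the knockouts come before the floxed controls.

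The 78 proteins of the mitochondrial ribosome had higher values for 50 and lower values for 28. Their median log2 fold change was 0.03, beside 0.05 over all tested genes. *Mrpl39*, of the large subunit, averaged 26.9 ± 1.28 TPM in the knockouts and 20.3 ± 2.73 TPM in the floxed controls (SD, n = 4 per group), and its adjusted p of 0.288 was the smallest of the whole list. Of 5 tested regulators of mitochondrial content, 4 had lower values, and *Pprc1*, a coactivator of the PGC-1 family, averaged 5.27 ± 0.714 TPM in the knockouts and 6.89 ± 1.11 TPM in the floxed controls, with an adjusted p of 0.617.

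The nuclear subunits that join the mitochondrially encoded ones in the same complexes also gave no call in limma. Of 75 tested genes chosen by symbol, 61 had higher and 14 lower values, the smallest adjusted p was 0.660, and none had an unadjusted p under 0.05. Sign counts of the nuclear lists are given without the share of higher signs over all tested genes. The median over all tested genes was itself above 0, and it was 0.0036 under median-of-ratios scaling. The median log2 fold change was 0.07 for the 38 genes of complex I, 0.01 for the 9 of complex III, 0.01 for the 11 of complex IV and 0.04 for the 17 of ATP synthase, beside 0.05 over all tested genes. *Ndufb2* of complex I, the member of smallest p, averaged 159 ± 14.1 TPM in the knockouts and 139 ± 12.5 TPM in the floxed controls (SD, n = 4 per group). *Uqcrc2* of complex III averaged 147 ± 3.89 TPM in the knockouts and 137 ± 10.4 TPM in the floxed controls. *Cox6a1* of complex IV averaged 1428 ± 77.5 TPM in the knockouts and 1344 ± 122 TPM in the floxed controls. *Atp5mpl* of ATP synthase averaged 414 ± 31.3 TPM in the knockouts and 378 ± 27.9 TPM in the floxed controls.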

How the data were processed

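The authors deposited 1 table of TPM, rounded to 2 decimals, for 8 libraries of total liver RNA, prepared with a kit that keeps strand, per the labels. RSEM 1.3.3 and GRCh38.p13, a human build, are named in the submitters' processing notes, although the gene identifiers are murine. No source used here states the aligner, the annotation release or the strand setting. Each library summed to 994563 to 995449 TPM. Depth is unknown and counting intervals cannot be formed. TPM is a share, so abundant RNAs move all other values.

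Symbols matched 52083 of 55416 identifiers. The 12710 genes that reached 1 TPM in 4 or more libraries were compared on log2(TPM + 1), whose fold changes understate low genes, in limma 3.58.1 under R 4.3.3 (eBayes with trend, no covariates), with Benjamini-Hochberg adjustment over all tested genes. The script was tested on simulated data. Whether the libraries are separate animals is not stated in the labels, and p-values cover only the spread among these samples, which may be technical. Replicate numbers are not said to pair the libraries, and the main fit did not pair them.

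Strand, length and sequence came from GENCODE M21 (GRCm38), whose annotation is not the authors'. Its transcripts were matched to the mitochondrial ones with BLAST+ 2.17.0 (identity of at least 90%), and 7 copies with at least 99% identity over 90% of their length were added to their members by length, a step chosen after the data were seen. The members and lists were chosen with earlier results of these data known. Sums and ratios over members carry no test. Named were all messenger and ribosomal RNAs, and from each nuclear list the member of smallest p. The alternatives were other pseudocounts, filters, scalings, weights, a replicate block and leaving out each library.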

Additional observations from a re-analysis of the deposited data

Results flagged for a closer look

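In groups of 4 libraries, a highest or lowest library far from the 3 others was looked for in 108 group tests, where chance gives about 1 in 20, and 9 were found, all in *mt-Nd6* or quantities that contain it. Floxed control 4 had 1938 TPM of *mt-Nd6*, while the next floxed control had 1542 TPM, and the same library gave 0.195% of library TPM in light strand promoter genes, with or without copies added, while the next had 0.155%. Knockout 2 had the highest *mt-Nd6* among the knockouts relative to the 12 heavy strand promoter messenger RNAs, at 1.95 TPM per 100 TPM, a log2 ratio of -5.68, while the next knockout had 1.58. With copies added these were 1.14 TPM per 100 TPM, a log2 ratio of -6.46 and 1.12% of the messenger RNA pool. Floxed control 3 had 112 TPM of *mt-Nd6* per 100 TPM of *mt-Nd5*, while the other floxed controls had 104.0 to 104.5. Each of these libraries stayed on its own genotype's side of the other group.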

How the results depend on the processing

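No member passed the threshold under any alternative run, with or without copies, with the replicate block or without any library. *mt-Nd6* kept its direction in all of them. Its log2 fold change lay between -0.51 and -0.35 with 1 library left out and was -0.37 with library weights and -0.50 with median-of-ratios scaling. Its adjusted p ranged from 0.171 (library weights) to 0.548 (no filter) over the alternatives, with 0.475 under the replicate block. The number of genes called in the whole table, 13, was 8 and 6 with pseudocounts of 0.1 and 5, 0 without a filter, 20 with library weights, 0 with the replicate block and 0 to 12 with 1 library left out (0 without knockout 3, floxed control 1 or floxed control 4, 2 without knockout 2 or floxed control 3, and 5 without knockout 1). The correlations of same-numbered libraries' deviations were -0.15, 0.03, -0.15 and -0.20. Whether the numbers mark pairs is not stated, and so few libraries cannot decide it. The difference in the light strand promoter share, -0.043 percentage points, was -0.063 when the 20 most abundant other genes were left out of the total. The nuclear copies counted as other genes there, and in every run on listed values that was rescaled without mitochondrial genes.

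Several log2 fold changes changed sign, and none of them passed. With copies added, that of *mt-Co2* was -0.016, against 0.64 as listed, and that of *mt-Co3* was 0.0053, against -0.18 as listed. The others that changed sign with copies were -0.024 (*mt-Co1*) and 0.21 (*mt-Nd4l*). Rescaled to the other genes as well, they were -0.030 (*mt-Co1*), -0.022 (*mt-Co2*), 0.20 (*mt-Nd4l*) and -0.0014 (*mt-Nd2*). Median-of-ratios scaling gave -0.055 (*mt-Nd2*) and -0.030 (*mt-Co1*), and a total without mitochondrial genes and the 20 most abundant others -0.028 (*mt-Nd2*) and -0.0029 (*mt-Co1*). Quantile normalization gave 0.036 (*mt-Nd4*) and 0.14 (*mt-Cytb*), and library weights 0.036 (*mt-Atp8*), 0.033 (*mt-Cytb*) and 0.052 (*mt-Rnr2*). With 1 library left out the ranges were -0.054 to 0.091 (*mt-Nd2*), -0.028 to 0.12 (*mt-Co1*), -0.083 to 0.044 (*mt-Atp8*), -0.25 to 0.038 (*mt-Atp6*), -0.65 to 0.31 (*mt-Co3*), -0.22 to 0.068 (*mt-Nd4l*), -0.13 to 0.047 (*mt-Nd4*), -0.071 to 0.088 (*mt-Cytb*), -0.25 to 0.0093 (*mt-Rnr1*) and -0.14 to 0.12 (*mt-Rnr2*). The cause of these changes was not tested.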
